A study of Drosophila melanogaster with 10 samples.

Results

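The genes described here are 51 of the 17559 rows of a gene count table from whole male Drosophila melanogaster. They comprise the 20 genes whose symbol is Atg followed by a number, the 29 genes whose symbol begins with Vha, and ref(2)P and Mitf. The choice used symbols alone and no measured value. In the annotation, 55 genes meet this rule, and Vha13, Vha26, Vha44 and VhaAC39-1 were not paired with a row and are not analysed here. The study compared 2 groups of 5 libraries to ask what changes when Mef2, a transcription factor of the MADS-box family, is knocked down in the fat body. Control males were w[1118] with 1 copy of the c564 driver, and knockdown males were w[1118] with 1 copy of c564 and 1 copy of the hairpin transgene UAS-Mef2-IR[GD15549]. Both groups therefore carried the GAL4 driver, and the controls carried no hairpin transgene. The males were 5 to 10 days old, and each library was made from 5 pooled flies. The c564 driver is active in fat body cells and certain further tissues, while the RNA came from the whole animal. In such bulk samples, fewer cells of a type and less RNA per cell cannot be told apart.

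Autophagy encloses cytoplasm in a double membrane, the autophagosome, and delivers it to the lysosome. The Atg proteins act in sequence: the Atg1 kinase complex starts the process, a phosphatidylinositol 3-kinase complex marks the membrane, Atg9, Atg2 and Atg18 bring lipid, and ubiquitin-like conjugation enzymes anchor Atg8 to it. The vacuolar ATPase, encoded by the Vha genes, pumps protons into lysosomes and other compartments and so acidifies them. Its V1 sector hydrolyses ATP in the cytosol, its V0 sector forms the proton channel in the membrane, and in the fly several subunits are encoded by more than 1 gene. The fat body is the tissue in which starvation-induced autophagy of the fly has been studied most. Mitf, the fly homolog of mammalian TFEB and MITF, is known to regulate genes of the vacuolar ATPase.

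Total counts were 43823883 to 102851945 per library. Expression is given as CPM, counts scaled to a library of 1000000 and between libraries, and levels of different genes are compared per kilobase of exon. A gene was called where its adjusted p was under 0.05 in edgeR's quasi-likelihood test, adjusted by Benjamini-Hochberg over the 13928 genes tested. An adjusted p of a gene below comes from that test on group over all libraries unless another fit is named. The other fits are an interaction, a block, a covariate, a set alone or a library left out. Their adjusted p comes from edgeR's test in that fit, over the genes tested there. Mef2 held 95.1, 92.7, 100.7, 90.7 and 88.9 CPM in the control libraries and 75.9, 78.7, 73.6, 81.6 and 86.6 CPM in the knockdown libraries, and it fell by 0.24 on the log2 scale (SE 0.06, adjusted p = 0.0149). In both groups, replicates 1 to 3 stood apart from replicates 4 and 5: the first principal component of the deviations from the group means, with 44.6% of their variance, lay between -18.72 and -6.93 in the former and between 11.29 and 30.01 in the latter. No label marks these sets as batches, so the changes of the called members are also given within them. Where values are given in the sets, that of replicates 1 to 3 comes first. The fall of Mef2 was -0.34 in replicates 1 to 3 and -0.09 in replicates 4 and 5, a difference between the sets at an interaction adjusted p of 0.0425. Fitted alone, replicates 1 to 3 called Mef2 lower (-0.34, adjusted p = 0.000485). In replicates 4 and 5 alone it was not called (-0.12, adjusted p = 0.28).

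The autophagy genes that rose in the knockdown encode mainly the machinery that conjugates Atg8, together with the scaffold Atg13 and the cargo receptor ref(2)P. Of the 20 Atg genes, 6 rose and none fell, a share of 30% against 11.1% of all tested genes called higher. Of the 28 Vha genes that passed the filter on low counts, 5 rose and none fell, a share of 17.9%. The share of all genes called lower was 5.51%, and the unadjusted p was under 0.05 with a lower level for 0 Atg genes and 3 Vha genes. DESeq2 and limma voom also called 0 members of either family lower, and they called 7 and 6 Atg genes and 6 and 5 Vha genes higher. With the replicate number as a block 2 Vha genes were called lower, with the set as a covariate 3, and in replicates 4 and 5 alone 8. Of the 13928 genes, 1019 were called lower with the block and 2084 with the covariate, and 14.4% in replicates 4 and 5 alone. The covariate also put 8 Vha genes higher, against 2687 of all genes. The median log2 change was 0.14 over the Atg genes, with a range of -0.17 to 0.62, and 0.07 over the Vha genes, with a range of -0.33 to 0.72, against -0.00 over all tested genes. The Atg changes were positive in 16 genes and negative in 4, whereas the Vha changes were positive in 15 and negative in 13. No test of the difference between the families was made. The Vha count was 2 or 3 without any 1 of the 5 control libraries and 3 without knockdown replicate 4 or knockdown replicate 5. Calls over all genes fell too. From 1549 higher, they went to between 853 and 1201 without 1 control library. Without knockdown replicate 4 they were 1186, and without knockdown replicate 5 they were 1095. The Atg count was 4 to 7 with each library left out.

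**Figure D1:**
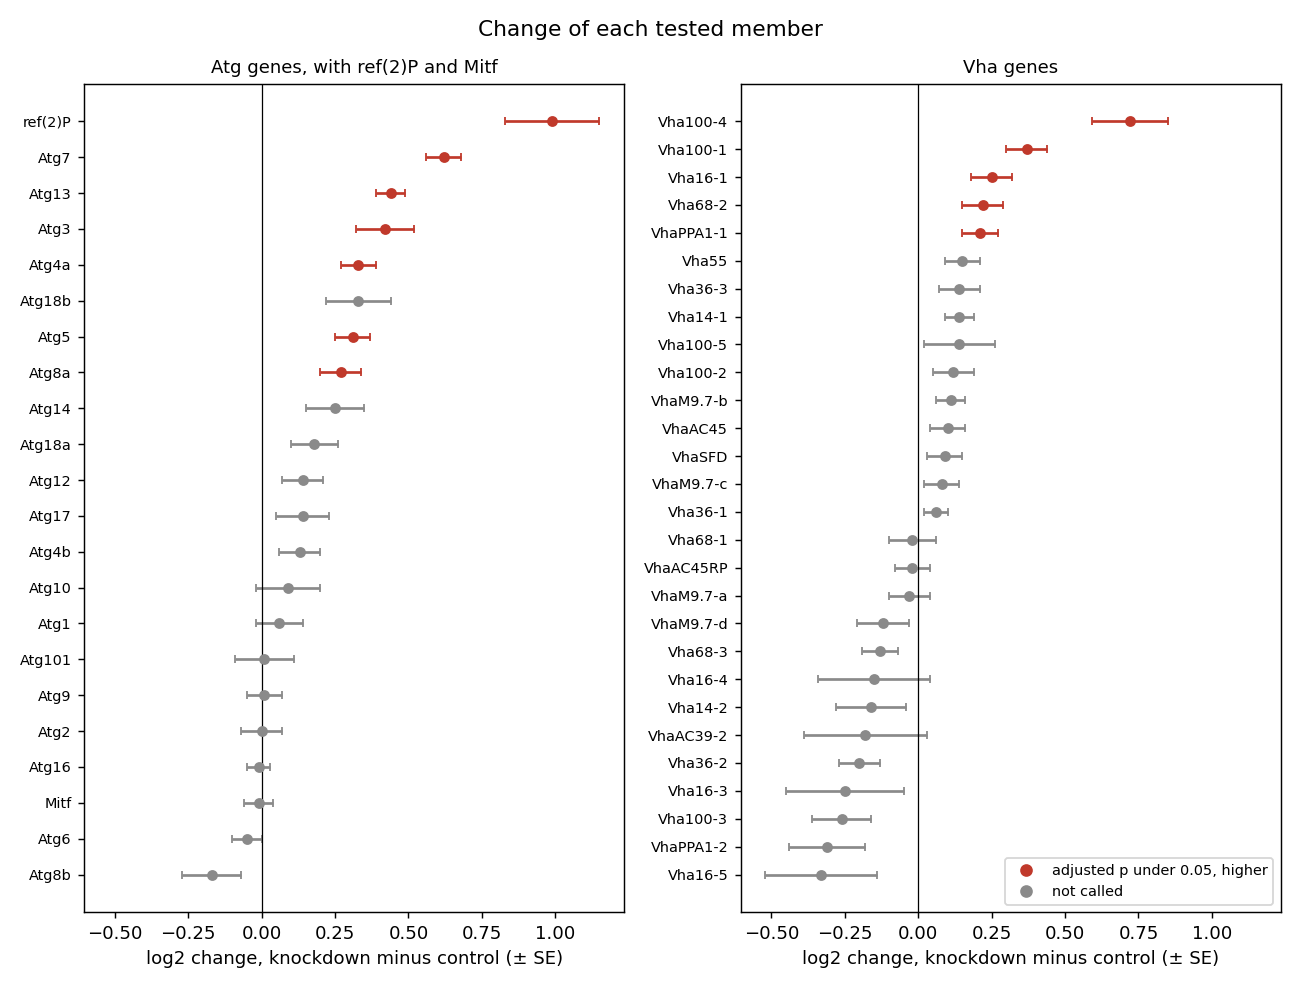
Log2 change (knockdown minus control) of each tested gene with its standard error, for the Atg genes with ref(2)P and Mitf on the left and the Vha genes on the right; red marks genes called higher at an adjusted p under 0.05. ref(2)P stands highest at 0.99, and the lower end of the Vha panel, down to -0.33 for Vha16-5, holds no called gene.

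In the initiation complex, Atg13 rose and its partners were not called. Atg13, on chromosome 3R (8349815 to 8352817, BDGP6), is the regulatory subunit that binds the Atg1 kinase. It held 51.8, 53.4, 52.1, 55.8 and 55.9 CPM in control and 70.4, 72.4, 69.1, 70.7 and 81.7 CPM in knockdown. The groups did not overlap, and the log2 change was 0.44 (SE 0.05, adjusted p = 0.000392). It was 0.43 in replicates 1 to 3 and 0.45 in replicates 4 and 5, and it was called under all 20 alternative settings.

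The kinase Atg1 held 74.5, 77.1, 85.5, 65.6 and 62.9 CPM in control and 77.7, 73.3, 71.0, 74.5 and 84.8 CPM in knockdown, with a change of 0.06 (adjusted p = 0.624). Its groups overlapped: control replicates 4 and 5 were low and knockdown replicate 5 was high. Atg17, the fly counterpart of the scaffold FIP200, and Atg101, which binds Atg13, were low in the same control libraries. Atg17 held 111.5, 116.7, 127.5, 98.6 and 97.2 CPM in control and 121.4, 113.5, 113.4, 119.3 and 139.8 CPM in knockdown. Atg101 held 36.9, 39.1, 41.8, 32.0 and 29.4 CPM in control and 37.1, 33.1, 32.2, 39.1 and 39.6 CPM in knockdown. All of Atg1, Atg17 and Atg101 thus had their lowest control values in replicates 4 and 5. Their changes were -0.09, -0.03 and -0.20 in replicates 1 to 3 and 0.31, 0.40 and 0.36 in replicates 4 and 5, and the interaction passed for each (adjusted p = 0.0246, 0.0214 and 0.00879). Fitted alone, replicates 1 to 3 put Atg101 lower (-0.20, adjusted p = 0.0417) and replicates 4 and 5 put it higher (0.33, adjusted p = 0.0298).

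Among the 10 genes of ubiquitin-like conjugation, 5 rose, a share of 50% against 11.1% of all tested genes. Atg7, the E1-like enzyme that activates both Atg8 and Atg12, had the largest change of any Atg gene. It lies on chromosome 2R (18620466 to 18625044) and held 11.0, 11.9, 11.3, 11.2 and 11.4 CPM in control and 16.7, 16.4, 16.9, 18.5 and 18.8 CPM in knockdown. Every knockdown library was above every control library, with a change of 0.62 (SE 0.06, adjusted p = 4.55e-05). It was 0.55 in replicates 1 to 3 and 0.72 in replicates 4 and 5, and the call held under all 20 alternatives. Atg3, the E2-like enzyme that passes Atg8 to its lipid, held 42.4, 44.9, 40.2, 46.8 and 46.1 CPM in control and 51.9, 51.7, 54.8, 75.4 and 61.2 CPM in knockdown. Its change was 0.42 (SE 0.10, adjusted p = 0.0163), with knockdown replicate 4 the highest, and it was 0.31 and 0.55 in the sets. Without control replicate 3 its adjusted p was 0.0551.

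Atg4a, a protease that trims Atg8 before conjugation and releases it afterwards, held 45.6, 44.8, 44.8, 47.8 and 49.1 CPM in control and 58.4, 58.0, 58.3, 53.2 and 64.3 CPM in knockdown. It rose by 0.33 (SE 0.06, adjusted p = 0.00252), with 0.37 and 0.28 in the sets, and in replicates 4 and 5 fitted alone the change of 0.25 was not called (adjusted p = 0.131). Its paralog Atg4b had a change of 0.13 (adjusted p = 0.19). Atg5, which is joined to Atg12, held 13.5, 13.3, 12.0, 12.8 and 12.6 CPM in control and 15.2, 14.7, 16.3, 16.5 and 17.0 CPM in knockdown. It rose by 0.31 (SE 0.06, adjusted p = 0.00496), with 0.25 and 0.40 in the sets, while its partners were not called: Atg12 had a change of 0.14 (adjusted p = 0.165) and Atg16 of -0.01 (adjusted p = 0.826). Atg10, the E2-like enzyme for Atg12, was the lowest Atg gene per length at 1.99 CPM per kb and had a change of 0.09 (adjusted p = 0.559).

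Atg8a, the ubiquitin-like protein that is anchored to the autophagosome, was by far the most abundant Atg gene per length at 317.4 CPM per kb, ahead of Atg8b at 73.3, Atg3 at 42.2, Atg18a at 24.4 and Atg18b at 22.7 CPM per kb. It lies on the X chromosome (10764878 to 10768338). It held 522.0, 529.3, 480.9, 452.1 and 458.3 CPM in control and 579.0, 555.0, 560.1, 622.2 and 621.9 CPM in knockdown. The groups did not overlap, and the change was 0.27 (SE 0.07, adjusted p = 0.02), being 0.14 in replicates 1 to 3 and 0.45 in replicates 4 and 5 (interaction adjusted p = 0.0261). The call was lost without control replicate 3 (adjusted p = 0.0718), control replicate 4 (adjusted p = 0.0533) or knockdown replicate 5 (adjusted p = 0.0508). Atg8b, a paralog known from the male germline, held 51.1, 47.4, 53.4, 48.7 and 53.0 CPM in control and 48.8, 47.8, 50.0, 45.8 and 33.6 CPM in knockdown. It was not called (-0.17, adjusted p = 0.236), and knockdown replicate 5 alone lay far below the other libraries.

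None of the 6 genes for lipid marking and membrane supply was called by edgeR's test on group alone, with 3 at an unadjusted p under 0.05. Limma voom called 0 of them and DESeq2 called 1, Atg18b. Atg6, the Beclin homolog, stayed between 19.9 and 22.6 CPM in every library and had a change of -0.05 (adjusted p = 0.461). Atg14, its partner in the kinase complex, held 34.8, 36.2, 36.0, 32.0 and 32.0 CPM in control and 37.4, 36.4, 35.4, 50.5 and 43.5 CPM in knockdown. Knockdown replicates 4 and 5 were high, so that the change was 0.03 in replicates 1 to 3 and 0.55 in replicates 4 and 5 (interaction adjusted p = 0.0069), and over all libraries it was 0.25 (adjusted p = 0.0893). The lipid-binding Atg18a and Atg18b had the same order. Atg18b held 47.3, 51.0, 50.0, 50.5 and 46.0 CPM in control and 58.6, 52.2, 50.5, 71.7 and 74.2 CPM in knockdown, a change of 0.33 (adjusted p = 0.0533). It was called under 5 of the 20 alternatives. They were DESeq2, the set covariate (adjusted p = 0.0172) and replicates 4 and 5 alone (adjusted p = 0.00735). The others were without knockdown replicate 2 (adjusted p = 0.0323) and without knockdown replicate 3 (adjusted p = 0.0235). Atg18a had changes of 0.03 and 0.37 in the sets (interaction adjusted p = 0.0206). Atg2, a lipid transfer protein, and Atg9, the membrane protein of the supply vesicles, had changes of -0.00 (adjusted p = 0.998) and 0.01 (adjusted p = 0.924).

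ref(2)P had the largest change of all members. It is the fly p62, a receptor that binds ubiquitinated cargo and Atg8a and is itself degraded by autophagy, and it lies on chromosome 2L (19542468 to 19545548). It held 542.3, 541.7, 588.3, 670.7 and 665.5 CPM in control and 993.6, 924.7, 966.2, 1645.4 and 1427.2 CPM in knockdown. The lowest knockdown library was well above the highest control library, and replicates 4 and 5 were the highest in both groups. The mean went from 601.7 ± 63.5 to 1191.4 ± 325.1 CPM (SD, n = 5), a log2 change of 0.99 (SE 0.16, adjusted p = 0.00216), with 0.79 in replicates 1 to 3 and 1.20 in replicates 4 and 5 (interaction adjusted p = 0.022). The call held under all 20 alternatives. Per length, ref(2)P was at 374.3 CPM per kb, above Atg8a and below Vha16-1. Its exons overlap those of CG10337 on the other strand.

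Mitf, on chromosome 4 (1198852 to 1224467), held 91.6, 89.4, 95.1, 93.0 and 86.0 CPM in control and 91.2, 85.0, 87.4, 88.9 and 101.0 CPM in knockdown. The groups overlapped fully, with a change of -0.01 (SE 0.05, adjusted p = 0.954).

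**Figure D2:**
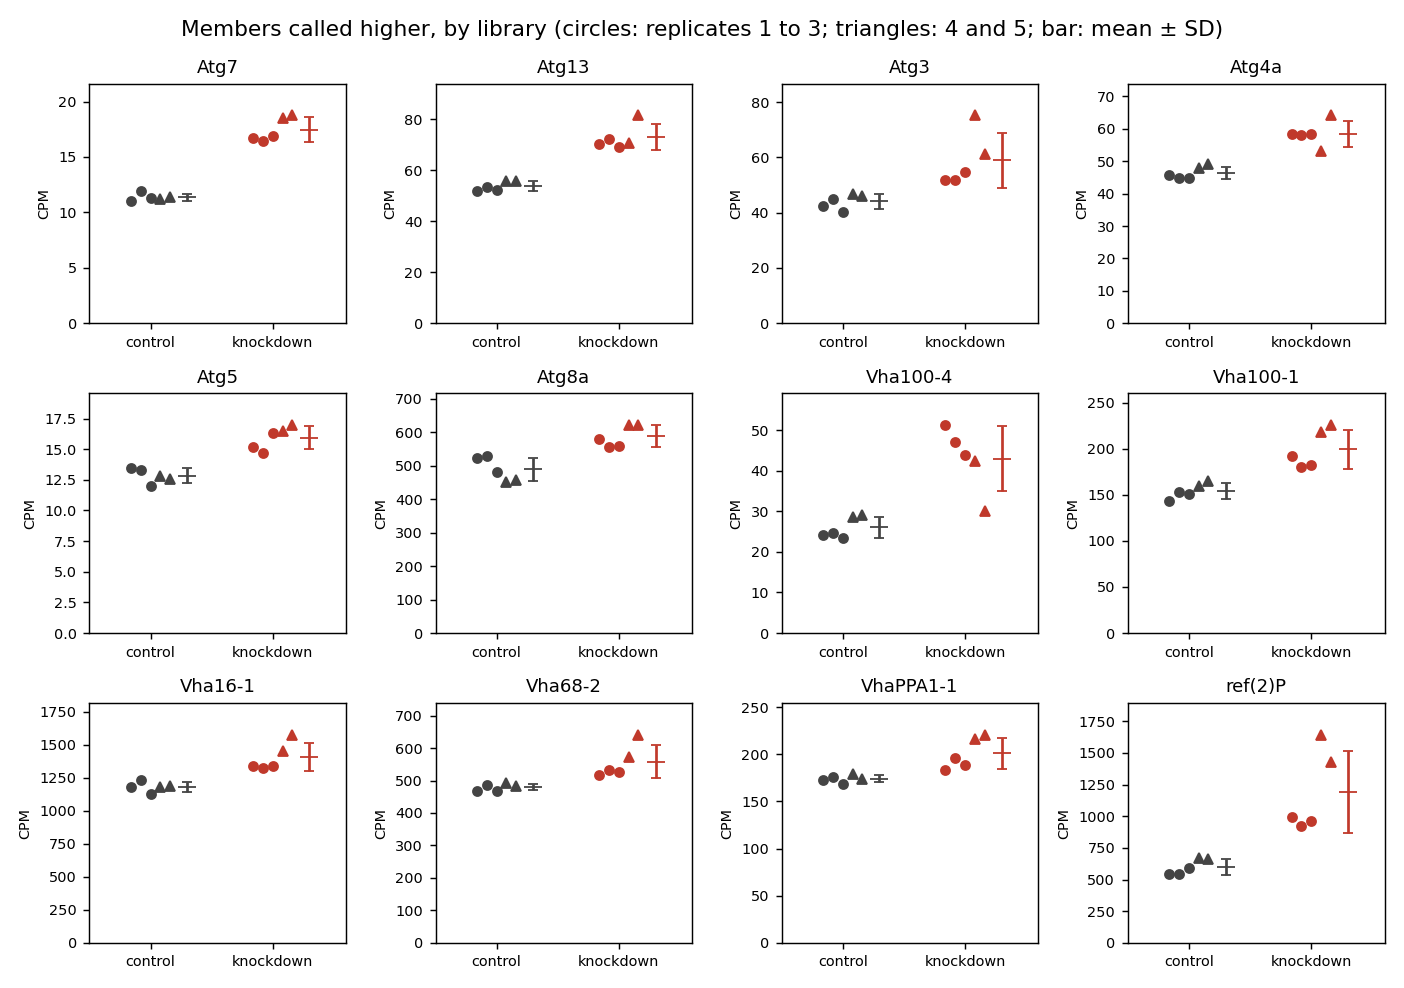
Expression in CPM in each library of the 12 members called higher, with control in grey, knockdown in red, circles for replicates 1 to 3, triangles for replicates 4 and 5, and bars for the mean ± SD of 5 libraries; every axis starts at 0. The groups do not overlap in any panel, and Vha100-4 in knockdown replicate 5, at 30.0 CPM, comes closest to the highest control library, at 29.2 CPM.

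Among the vacuolar ATPase genes, the members that rose were genes for subunits a, c, c″ and A. Of the 16 tested V0 genes 4 rose (25%) and of the 10 V1 genes 1 rose (10%), against 11.1% of all tested genes. The V1 share was thus near that of all genes, and the sectors were not tested against each other. Of the 2 genes for the accessory protein Ac45 none was called by edgeR, DESeq2 or limma voom or had an unadjusted p under 0.05. The levels were led by Vha16-1 at 420.2 CPM per kb, followed by Vha55 at 220.4, Vha68-2 at 188.0, VhaAC45 at 154.6 and Vha36-1 at 142.6 CPM per kb. Vha16-2 did not pass the filter, at 0.121 to 0.22 CPM per library.

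The largest change was that of Vha100-4, a gene for subunit a, the large membrane protein that forms the proton path beside the rotating ring. It lies on chromosome 3R (18386841 to 18389805), and its exons overlap those of cona on the other strand. It held 24.2, 24.8, 23.4, 28.7 and 29.2 CPM in control and 51.4, 47.2, 43.9, 42.4 and 30.0 CPM in knockdown. The groups did not overlap, but knockdown replicate 5 was close to the controls. The change was 0.72 (SE 0.13, adjusted p = 0.00323), with 0.98 in replicates 1 to 3 and 0.32 in replicates 4 and 5 (interaction adjusted p = 0.0255), and in replicates 4 and 5 alone it was not called (adjusted p = 0.201).

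Vha100-1, another gene for subunit a and known from neurons, held 142.9, 153.2, 151.1, 159.5 and 164.6 CPM in control and 192.3, 180.0, 182.0, 218.3 and 226.2 CPM in knockdown. It rose by 0.37 (SE 0.07, adjusted p = 0.0068), with 0.31 and 0.46 in the sets. It was called under every one of the 20 alternatives, and its exons overlap those of Alg13 on the other strand. The most abundant gene for this subunit per length, Vha100-2, held 264.2 to 278.0 CPM in control and 271.7 to 347.3 CPM in knockdown and was not called (0.12, adjusted p = 0.235). Its change was 0.01 in replicates 1 to 3 and 0.28 in replicates 4 and 5 (interaction adjusted p = 0.0399). Vha100-5 overlapped between the groups (0.14, adjusted p = 0.42). Vha100-3 had a change of the other sign, -0.26 (adjusted p = 0.0893). It was called lower with the replicate number as a block (adjusted p = 0.035) and without knockdown replicate 3 (adjusted p = 0.0413). The same held with the set covariate (adjusted p = 0.0101) and in replicates 4 and 5 alone (adjusted p = 0.0101).

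Vha16-1 encodes the proton-carrying subunit c of the ring. It held 1179.0, 1231.2, 1124.8, 1178.7 and 1183.6 CPM in control and 1337.4, 1324.6, 1339.1, 1455.5 and 1576.4 CPM in knockdown. The groups did not overlap, and it rose by 0.25 (SE 0.07, adjusted p = 0.0246), with 0.18 and 0.36 in the sets. The call was lost without control replicate 1 (adjusted p = 0.0646), control replicate 3 (adjusted p = 0.0872) or control replicate 4 (adjusted p = 0.0543) and in replicates 4 and 5 alone (adjusted p = 0.066).

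Vha68-2 encodes the catalytic subunit A of V1. It held 469.1, 486.2, 469.0, 491.0 and 483.3 CPM in control and 517.5, 532.5, 525.9, 571.4 and 641.6 CPM in knockdown, without overlap. The change of 0.22 (SE 0.07, adjusted p = 0.0457), with 0.15 and 0.32 in the sets, was called under only 7 of the 20 alternatives. Without any 1 of the 5 control libraries, or without knockdown replicate 2, 4 or 5, its adjusted p was 0.0522 to 0.125. VhaPPA1-1, for subunit c″ of the ring, held 173.1, 175.4, 168.8, 179.2 and 173.8 CPM in control and 183.6, 195.8, 189.0, 215.7 and 220.9 CPM in knockdown. Its rise of 0.21 (SE 0.06, adjusted p = 0.0369), with 0.14 and 0.31 in the sets, was called under 11 of the 20 alternatives, and without any 1 control library or without knockdown replicate 4 or 5 its adjusted p was 0.061 to 0.115.

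Vha55 is the gene here for the ATP-binding subunit B, and Vha14-1 is a gene for subunit F of the central stalk. Both were higher in every knockdown library than in any control library, but edgeR on group alone called neither. DESeq2 called Vha55 higher, and with the set covariate Vha55 and Vha14-1 were called higher (adjusted p = 0.0406 and 0.0416). Vha55 held 566.9 to 603.5 CPM in control and 611.2 to 706.0 CPM in knockdown (0.15, adjusted p = 0.0854), and Vha14-1 held 62.4 to 69.0 and 70.3 to 80.5 CPM (0.14, adjusted p = 0.08). With them, 7 Vha genes and 6 Atg genes were higher without overlap and none was lower without overlap, against 11.8% and 6.86% of all tested genes. The other V1 genes of high level had smaller changes: Vha36-1, for subunit D, of 0.06 (adjusted p = 0.289) and VhaSFD, for subunit H, of 0.09 (adjusted p = 0.25).

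Summed over the genes of each subunit, the level per length was higher without overlap for subunits A, B, F, a, c and c″. The sum for subunit c went from 399.2 ± 12.5 to 470.2 ± 31.8 CPM per kb (SD, n = 5), a ratio of 1.18, and that for subunit a from 183.5 ± 3.33 to 209.7 ± 11.0 CPM per kb, a ratio of 1.14. The ratios were 1.13 for c″, 1.11 for B, 1.09 for F and 1.08 for A. The sums overlapped for H with a ratio of 1.07, Ac45 with 1.06, e with 1.04 and D with 1.02. These sums follow mainly the most abundant gene of each subunit, which held 96.0 ± 0.491% of subunit c and 92.6 ± 0.367% of c″ in control but only 46.0 ± 0.936% of subunit a. Subunit d is left out because VhaAC39-1 is not analysed here.

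**Figure D3:**
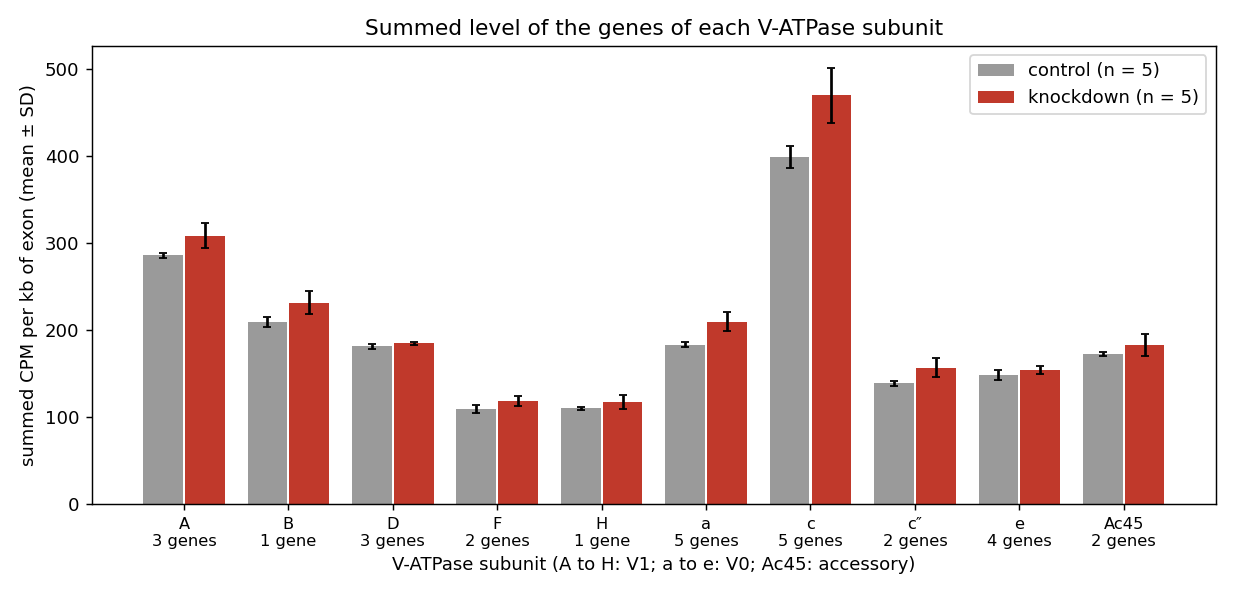
Summed CPM per kb of exon over the genes of each vacuolar ATPase subunit, as the mean ± SD of 5 control (grey) and 5 knockdown (red) libraries, with V1 subunits in capitals, V0 subunits in lower case and the accessory protein Ac45 last. Subunit c is the highest and goes from 399.2 to 470.2 CPM per kb, while subunit D is at 181.3 and 184.8 CPM per kb.

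Within the subunits, the more and the less abundant genes often had changes of different sign. The most abundant gene of each subunit (10 genes, subunit d left out) had a positive change in 10 of 10 cases, with 3 called higher and a median of 0.13. The other 17 tested genes had a negative change in 12 cases, with 2 called higher, Vha100-1 and Vha100-4, and a median of -0.12. Those called higher were 30% of the former and 11.8% of the latter, against 11.1% of all tested genes. This division was made after the values were seen and was not tested. Several of the less abundant genes are known mainly from the testis. VhaPPA1-2, the lesser gene for c″, held 7.09, 7.21, 6.68, 6.43 and 6.98 CPM in control and 6.04, 6.49, 6.44, 4.09 and 4.59 CPM in knockdown. Its change was -0.31 (adjusted p = 0.102), with the lowest values in knockdown replicates 4 and 5. It was called lower with the set covariate (adjusted p = 0.0191) and in replicates 4 and 5 alone (adjusted p = 0.018). Vha14-2, the lesser gene for F, held 12.7, 12.0, 12.2, 12.7 and 12.6 CPM in control and 12.7, 12.8, 12.7, 7.88 and 9.59 CPM in knockdown. In it, knockdown replicates 1 to 3 lay at the control level and replicates 4 and 5 below it (-0.16, adjusted p = 0.366). Vha16-3, a lesser gene for c, held 4.96, 4.74, 3.95, 3.93 and 3.54 CPM in control and 4.06, 4.58, 4.38, 2.34 and 2.29 CPM in knockdown, again lowest in knockdown replicates 4 and 5 (-0.25, adjusted p = 0.385).

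The remaining Vha genes were not called by edgeR on group alone. Among the genes for subunit c, Vha16-5 had a change of -0.33 (adjusted p = 0.223) and Vha16-4 of -0.15 (adjusted p = 0.592). Vha16-5 was called lower with the replicate number as a block (adjusted p = 0.0425) and with the set covariate (adjusted p = 0.0169). It was also called lower in replicates 4 and 5 alone (-0.66, adjusted p = 0.0198). For subunit A, Vha68-1 had a change of -0.02 (adjusted p = 0.876) and Vha68-3 of -0.13 (adjusted p = 0.15). For subunit D, Vha36-2 had a change of -0.20 (adjusted p = 0.0839) and Vha36-3 of 0.14 (adjusted p = 0.148). The genes for the small subunit e had changes of 0.11 for VhaM9.7-b, 0.08 for VhaM9.7-c, -0.03 for VhaM9.7-a and -0.12 for VhaM9.7-d. VhaAC45 was at 0.10 and its relative VhaAC45RP at -0.02. VhaAC39-2, the gene here for subunit d, held 4.01 to 5.84 CPM in control and 2.39 to 5.88 CPM in knockdown (-0.18, adjusted p = 0.55). Not all of the less abundant genes were low in knockdown replicates 4 and 5, where the changes of Vha36-3 and VhaM9.7-c were 0.26 and 0.19.

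Some of these genes lie next to the abundant gene of the same subunit, which allowed a comparison within each library. Of 4 pairs of genes for 1 subunit with a gap of at most 5 kb, 3 had counts high enough for a ratio, and each of the 3 holds the abundant gene. Vha68-3 lies on chromosome 2L (12978786 to 12981293), 178 bp from Vha68-2 (12974322 to 12978607). Its log2 ratio to Vha68-2 was -1.89, -1.97, -1.83, -1.84 and -1.81 in control and -2.03, -2.03, -2.11, -2.32 and -2.59 in knockdown. The ratio was lower in every knockdown library, by -0.35 on average (exact two-sided permutation test, p = 0.00794, the smallest this design allows, and 0.0119 adjusted over 3 pairs).

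VhaPPA1-2 lies on chromosome 3R (14899606 to 14900277), 2052 bp from VhaPPA1-1 (14902330 to 14904061), and overlaps exons of CG3817 on the other strand. Its ratio to VhaPPA1-1 was also lower in every knockdown library, at -4.66 ± 0.08 in control and -5.21 ± 0.41 in knockdown (SD, n = 5; exact permutation p = 0.00794, adjusted p = 0.0119). The differences were -0.16 and -0.28 in replicates 1 to 3 and -0.63 and -0.93 in replicates 4 and 5 for the 2 pairs in this order. For each pair the exact permutation p was 0.1 in replicates 1 to 3 and 0.333 in replicates 4 and 5. These are the smallest values that such numbers of libraries allow. Vha100-4, 517 bp from Vha100-2 (18390323 to 18399169), went the other way, from -3.39 ± 0.15 to -2.80 ± 0.44 (exact permutation p = 0.0397, adjusted p = 0.0397). Its ratio overlapped between the groups because knockdown replicate 5 was at -3.53, and the difference was 0.96 in replicates 1 to 3 and 0.03 in replicates 4 and 5. It had an exact p of 0.0635 to 0.0794 with any 1 library left out except knockdown replicate 5, where it was 0.0159, the smallest that 5 libraries against 4 allow. The pairs were compared after the values of the single genes were seen. Vha68-2, VhaPPA1-1 and Vha100-4 had each been called higher, so the ratios restate those calls in part and are not separate evidence.

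**Figure D4:**
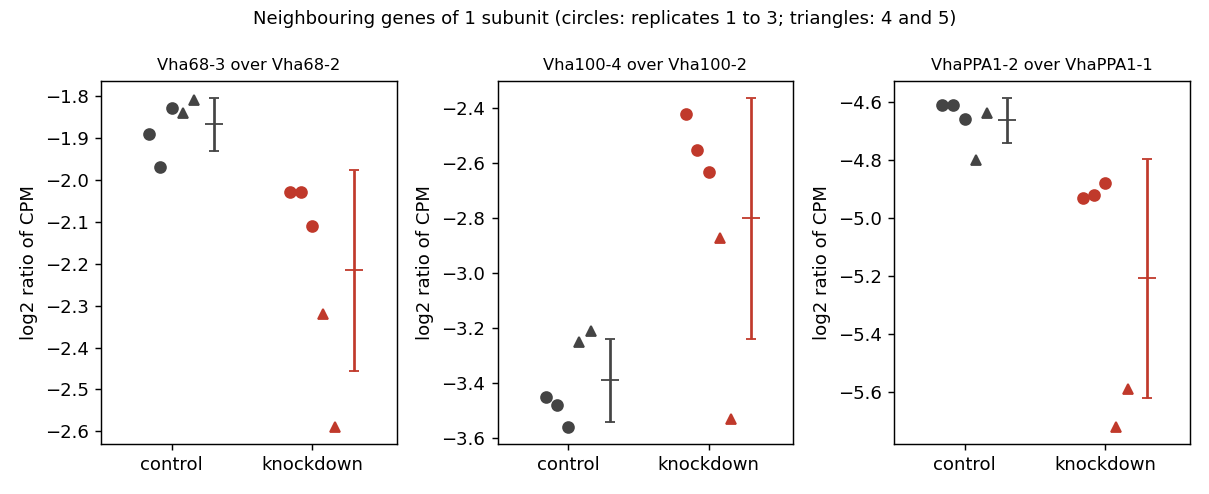
Log2 ratio of CPM between neighbouring Vha genes of the same subunit in each library, with control in grey, knockdown in red, circles for replicates 1 to 3, triangles for replicates 4 and 5, and bars for the mean ± SD of 5 libraries; the axes differ and do not start at 0. The left and right ratios are lower in all knockdown libraries, and in the middle panel knockdown replicate 5, at -3.53, lies among the controls.

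Each member's change was compared between replicates 1 to 3 and replicates 4 and 5. The interaction passed for 7 Atg genes, all with the higher change in replicates 4 and 5. It passed for 10 Vha genes, with the higher change in replicates 4 and 5 for Vha100-2 and the lower for the other 9, and for ref(2)P. Over all tested genes 18.8% passed, 8.72% with the higher and 10.0% with the lower change in replicates 4 and 5. The median change of the Atg genes was 0.03 in replicates 1 to 3 and 0.33 in replicates 4 and 5, that of the Vha genes 0.03 and 0.12, and that of all genes -0.01 and 0.01. Among the less abundant Vha genes the medians were -0.01 and -0.32. Fitted alone, replicates 4 and 5 put 10 Atg genes higher and none lower, and 2 Vha genes higher and 8 lower. Of all genes, 13.2% were higher and 14.4% lower there. The 8 Vha genes were Vha100-3, Vha14-2, Vha16-3, Vha16-5, Vha36-2, Vha68-3, VhaM9.7-d and VhaPPA1-2. Replicates 1 to 3 alone put 6 Atg genes higher and 1 lower, and 6 Vha genes higher and none lower, against 15.4% and 9.92% of all genes. All 6 Atg genes called over the 10 libraries were also called in replicates 1 to 3 alone, and 5 of them in replicates 4 and 5 alone. The number of members that passed the interaction, 18, depended on single libraries: it was 8 without control replicate 2, 6 without control replicate 4, 4 without control replicate 5, 7 without knockdown replicate 2 and 11 without knockdown replicate 3, but 19 without knockdown replicate 5 and 25 without knockdown replicate 4.

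**Figure D5:**
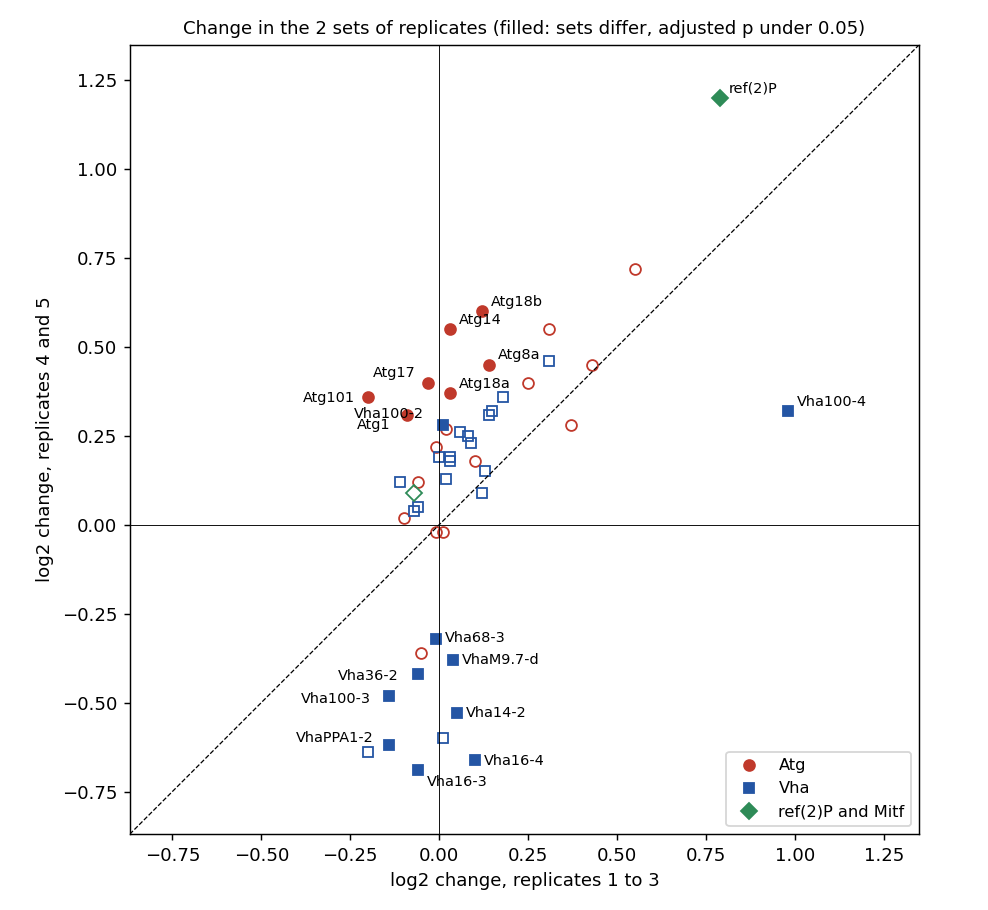
Log2 change of each tested member in replicates 1 to 3 (horizontal) and in replicates 4 and 5 (vertical), with Atg genes as red circles, Vha genes as blue squares, ref(2)P and Mitf as green diamonds, filled symbols where the sets differ at an adjusted p under 0.05, and a dashed line of equal change. The filled Atg genes lie above the line, and 9 of the 10 filled Vha genes lie below it, with Vha100-4 at 0.98 and 0.32.

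The level summed over a family was higher in knockdown for both families, without overlap between the groups. For the Atg genes it went from 1338.2 ± 60.9 to 1531.7 ± 83.5 CPM, and for the Vha genes from 4386.5 ± 52.9 to 4904.4 ± 273.0 CPM (SD, n = 5). In knockdown the Vha sum was highest in replicate 5, at 5349.8 CPM, and the Atg sum too, at 1636.2 CPM. The sums weigh the most abundant genes most and do not show a rise of every member. The mean of Atg8a went from 488.5 to 587.6 CPM and that of Vha16-1 from 1179.5 to 1406.6 CPM. Of the tested Vha genes, 15 had a positive and 13 a negative change.

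Genes that act with the members were read from further lists. Of 19 other genes of the autophagy machinery, 2 rose, a share of 10.5% and so near the 11.1% of all tested genes, and none was lower by edgeR, DESeq2, limma voom or at an unadjusted p under 0.05, with a median of 0.15 and 18 of 19 changes positive. They were bchs, the homolog of the aggregate adaptor Alfy (0.30, adjusted p = 0.0151), and Vamp7, a SNARE of autophagosome fusion (0.30, adjusted p = 0.0163). The Vamp7 call was lost without control replicate 1 (adjusted p = 0.0508) or control replicate 3 (adjusted p = 0.0546). Rubicon, an inhibitor of autophagy in mammals, had a change of 0.21 (adjusted p = 0.0552). Their median was 0.06 in replicates 1 to 3 and 0.29 in replicates 4 and 5, the same order as in the Atg genes.

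Of 21 genes of TORC1 signalling and nutrient sensing, the pathway that restrains the Atg1 complex when nutrients are plentiful, 6 rose, a share of 28.6% against 11.1%, and none was lower by edgeR, DESeq2, limma voom or at an unadjusted p under 0.05. Iml1, a subunit of the GATOR1 complex that inhibits TORC1, held 82.8 to 108.9 CPM in control and 125.5 to 183.1 CPM in knockdown, and rose by 0.63 (SE 0.11, adjusted p = 0.00262). Lst8, a subunit of the TOR complexes, rose by 0.31 (adjusted p = 0.0149) and the GTPase RagA-B by 0.38 (adjusted p = 0.0155), the latter not called without control replicate 3 (adjusted p = 0.0536). The other 3 were Tsc1 and Sesn, inhibitors of TORC1, and Akt, an activator, called under 7, 12 and 12 of the 20 alternatives. The median was 0.16, with 0.08 and 0.28 in the sets.

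Lysosomal genes moved in both directions, with 7 higher and 3 lower of 19 tested, shares of 36.8% and 15.8% against 11.1% and 5.51% of all genes. Their median was 0.06, with 0.04 and 0.07 in the sets. Gba1b, a glucocerebrosidase, held 21.9 to 27.1 CPM in control and 45.8 to 49.0 CPM in knockdown and rose by 0.98 (SE 0.07, adjusted p = 6.93e-06). Npc2a, a sterol-binding protein of the lysosome, rose by 0.67 (adjusted p = 6.9e-05) and the mannosidase LManII by 0.56 (adjusted p = 0.00219). LManII had changes of 0.73 and 0.29 in the sets (interaction adjusted p = 0.0329) and was not called in replicates 4 and 5 alone (adjusted p = 0.138). The protease CtsF, the lysosomal membrane carrier spin and the saposin precursor Sap-r fell, with log2 changes of -0.24, -0.42 and -0.31 (adjusted p = 0.00846, 0.0106 and 0.00481). None of 4 accessory and assembly factors of the vacuolar ATPase was called at 0.05, or by DESeq2 or limma voom, and 1 had an unadjusted p under 0.05, ATP6AP2. It was higher in every knockdown library (0.11, adjusted p = 0.131), whereas Rbcn-3B had a change of -0.07 (adjusted p = 0.43) and mtd of 0.06 (adjusted p = 0.539).

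Markers of some cell types of the whole fly also moved between the groups. Of 9 hemocyte markers 6 rose, a share of 66.7% against 11.1% of all genes, with medians of 0.47 and 0.44 in the sets. Their summed level was 373.1 to 429.9 CPM in control and 474.1 to 585.6 CPM in knockdown. Of 8 markers of the Malpighian tubule, an organ rich in vacuolar ATPase, 3 rose (37.5%), with sums of 479.9 to 512.6 and 561.9 to 630.2 CPM and medians of 0.01 and 0.13 in the sets. None of the 14 testis markers was called by edgeR on group alone, DESeq2 or limma voom, with 2 at an unadjusted p under 0.05. All 14 changes were negative, and 7 were called lower in replicates 4 and 5 alone, against 14.4% of all genes. Their sums were 1475.5 to 1623.9 CPM in control and 1189.6 to 1523.4 CPM in knockdown, lowest in knockdown replicates 4 and 5 at 1426.7 and 1189.6 CPM, the libraries in which VhaPPA1-2, Vha14-2 and Vha16-3 were also lowest. Of 7 tested fat body markers 3 rose (42.9%) and 1 fell (14.3%, against 5.51% of all genes), with sums of 2798.2 to 3504.2 and 2693.4 to 3440.0 CPM. Their medians were 0.34 and 0.15 in the sets, and the interaction passed for 5, against 18.8% of all genes. In replicates 1 to 3 the sums were 2798.2 to 2997.1 CPM in control and 3194.2 to 3440.0 CPM in knockdown. In replicates 4 and 5 they were 3504.2 and 3465.7 CPM in control and 2693.4 and 3213.3 CPM in knockdown. Of the gut, nervous system and muscle markers edgeR on group alone called none, with 4, 0 and 1 at an unadjusted p under 0.05. DESeq2 and limma voom each called 1 gut marker lower. Over all libraries the sums overlapped between the groups. In replicates 1 to 3 the gut sums were 2853.8 to 2987.2 and 2460.6 to 2762.7 CPM, and those of the nervous system 932.4 to 993.1 and 848.8 to 886.9 CPM. In replicates 4 and 5 the gut sums were 3619.1 and 3467.3 CPM in control and 3452.6 and 1940.8 CPM in knockdown. Replicates 1 to 3 alone put 4 of 8 nervous system markers lower, and of 7 gut markers 2 higher and 3 lower. The shares of all genes there were 15.4% higher and 9.92% lower. Every marker had counts in some library. The part of these cell types in the changes of the Atg and Vha genes was not tested.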

How the data were processed

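Polyadenylated RNA of 10 libraries was measured, 5 per group, and samples were grouped by their labelled genotype. The authors deposited raw counts for 17559 gene identifiers. The submitters' processing notes name bcl2fastq, STAR 2.4.0j, featureCounts, limma and the build BDGP6. Libraries were made with a stranded mRNA kit, per the labels' protocols. How featureCounts handled strand and multi-mapping reads is not given in the sources used here. Counts of paralogs, and of the 11 members whose exons overlap another gene, are therefore uncertain. Ensembl release 115 gave 17253 symbols, the coordinates and the exon lengths.

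Counts were tested with edgeR 4.0.16 in R 4.3.3: TMM scaling, filterByExpr at a minimum count of 10, and a quasi-likelihood fit on group over the whole table. Standard errors are the size of the log2 change over the square root of F. The steps were tested on simulated data. The sets of replicates were compared with a group by set interaction. The alternatives were other scalings, DESeq2 1.42.0, limma 3.58.1 (voom), other filters, a replicate block, a set covariate, each set alone and each library left out. Ratios of neighbours were tested with scipy 1.17.1. A count of 3, the floor, equals 0.0292 to 0.0685 CPM, for counting error only. Replicates differed by more than sampling noise, with a chi-square over degrees of freedom of 7.09 or more in every pair. Both groups have samples numbered 1 to 5, and no label says what a number marks or whether cultures were separate, so p-values measure the spread between these samples. Deviations of same-numbered samples correlated at 0.155 to 0.277, above the bound of 0.1 set for a pairing, from the data alone. The values were 0.09 to 0.344 for other numbers of the same set and -0.307 to -0.096 between sets. Since the range within a set holds that of the same numbers, these values cannot tell a pairing by number from the sets.

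The members, the further lists and the sets were chosen with earlier results of these data known. Genes named are Mef2, every member and the 3 genes of smallest adjusted p in each further list, and other list genes were named after their values were seen. The design text and the sample labels of the study differ on the chromosome of the hairpin transgene.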

Additional observations from a re-analysis of the deposited data

Results flagged for a closer look

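Among 100 sets of 5 values, 1 per member and group, 5 held a library far from the other 4, about the share chance gives (1 in 20). Atg12 was at 9.87 CPM in knockdown replicate 4, against 8.08 to 8.6 CPM in the others. In knockdown replicate 5, Atg13 was at 81.7 CPM against 69.1 to 72.4 CPM, and Atg8b was at 33.6 CPM against 45.8 to 50.0 CPM. Vha14-1 was at 62.4 CPM in control replicate 3, against 67.6 to 69.0 CPM. VhaSFD was at 320.7 CPM in control replicate 2, against 307.9 to 311.2 CPM.

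The change differed between replicates 1 to 3 and replicates 4 and 5 in 18 members (edgeR interaction test, adjusted p = 0.0069 to 0.0453). The difference, replicates 4 and 5 minus replicates 1 to 3 on the log2 scale, was 0.40 for Atg1, 0.56 for Atg101, 0.52 for Atg14, 0.43 for Atg17, 0.34 for Atg18a, 0.48 for Atg18b, 0.31 for Atg8a and 0.41 for ref(2)P. Among the Vha genes it was 0.27 for Vha100-2, -0.34 for Vha100-3, -0.66 for Vha100-4, -0.58 for Vha14-2, -0.63 for Vha16-3, -0.76 for Vha16-4, -0.37 for Vha36-2, -0.31 for Vha68-3, -0.42 for VhaM9.7-d and -0.48 for VhaPPA1-2.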

How the results depend on the processing

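Atg genes called higher numbered 6, and 4 to 7 with each library left out, 10 in replicates 4 and 5 alone; the 6 genes kept their call under every scaling, filter and other test run. Atg genes called lower numbered 0, and 1 in replicates 1 to 3 alone (Atg101, -0.20). The 5 Vha genes called higher became 3 with upper-quartile scaling, 3 with a filter of at least 1 count, 8 with the set covariate, 2 in replicates 4 and 5 alone, and 2 to 5 with each library left out. The 0 called lower became 2 with the replicate block (Vha100-3 and Vha16-5) and 3 with the set covariate. They became 8 in replicates 4 and 5 alone and 0 to 1 with each library left out. The block changed no other call among the members. Over all tested genes, 768 were called lower, 1019 with the block and 2084 with the set covariate. Those called higher numbered 1549, 2687 with the set covariate and 853 to 1612 with each library left out. The Atg median of 0.14 became 0.03 in replicates 1 to 3 alone, 0.31 in replicates 4 and 5 alone and 0.09 to 0.16 with each library left out. The Vha median of 0.07 became 0.03 with upper-quartile scaling, 0.06 with the filter of at least 1 count, 0.05 with a mean of at least 1 CPM, 0.03 in replicates 1 to 3 alone, 0.10 in replicates 4 and 5 alone, and 0.03 to 0.09 with each library left out. The 18 members whose sets differed became 4 to 25. The causes were not tested. Over 63 named genes and 20 alternatives, 1190 values kept their side of the threshold, 32 gained a call, 37 lost it and 1 reversed. Depth limits Vha16-2, which was not tested.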
